A study of Sus scrofa with 12 samples.

Results

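The genes of the mitochondrial respiratory chain were followed in subcutaneous fat of pigs, with the subunits encoded in the nucleus set beside those encoded in mitochondrial DNA. Nuclear members were the genes whose pig symbol starts with NDUFA, NDUFB, NDUFC, NDUFS, NDUFV, UQCR, ATP5F1, ATP5M or ATP5P (assembly factors of the NDUFAF series left out), together with SDHA to SDHD, CYC1, CYCS and a named set of cytochrome c oxidase subunits. This gave 60 nuclear genes, and with the 13 protein-coding mitochondrial genes 73 of the 24358 genes in the deposited table. Of the nuclear genes, 30 belong to complex I, 4 to complex II, 7 to complex III, 8 to complex IV and 10 to complex V, and 1 is cytochrome c. The mitochondrial genes contribute 7 subunits to complex I, 1 to complex III, 3 to complex IV and 2 to complex V. COX6B1, COX6C and ATP5F1B had no row under their symbols and were not analysed here. The same holds for other subunits that these prefixes would take in, among them NDUFS7, UQCRB and UQCRH. The counts per complex are therefore partial. All 60 nuclear and all 13 mitochondrial members passed the filter on low counts.

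Guangdong small-eared pigs (GS) were compared with Yorkshire pigs (YK), both labelled wild type, at ages of 9 d and 80 d. Each of the 4 groups held 3 libraries of bulk RNA from subcutaneous fat, and no treatment was labelled. The labels name the cell type as adipocyte but give adipose tissue as the source, and the libraries held transcripts of other cell types. They do not say whether replicates came from separate animals, so the p-values describe how far these libraries scatter, and that scatter may be technical.

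The respiratory chain passes electrons from NADH through complex I, or from succinate through complex II, to ubiquinone, then through complex III and cytochrome c to oxygen at complex IV. Complexes I, III and IV pump protons across the inner membrane, and complex V, the ATP synthase, lets them flow back to make ATP. Complex II and cytochrome c are encoded wholly in the nucleus, while the other complexes need subunits from both genomes. White adipocytes have few mitochondria compared with muscle or brown fat, but they use them for ATP and for the citrate that feeds fatty acid synthesis.

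Libraries held between 45435480 and 60993349 units before scaling. The 11 adipocyte markers, among them ADIPOQ (adiponectin) and PLIN1 (perilipin), summed to 13820 to 34860 counts per 1000000 scaled counts (CPM) per library, and none of the groups lacked them. Genes of other cell types stood high in single libraries. The 11 skeletal muscle genes with a row (of 17 listed) summed to 2592 CPM in YK 9 d replicate 1, 12953 in GS 9 d replicate 3 and 15228 in YK 80 d replicate 3. The same sum ran from 14.6 to 115 CPM in the other 9 libraries, where 1 to 3 of the 11 genes, mostly the slow-fibre troponins TNNC1 and TNNT1, were at 0. The 10 T and NK cell genes summed to 502 and 750 CPM in YK 80 d replicates 2 and 3 and to at most 151 CPM elsewhere. The skin genes summed to 105 and 184 CPM in YK 9 d replicates 2 and 3, and to 39.3 to 82.7 CPM elsewhere, the highest of these being YK 9 d replicate 1. These are the muscle-bearing (3), T cell-bearing (2) and skin-bearing (2) libraries. In bulk tissue, fewer cells of a type and less RNA per cell cannot be told apart.

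Summed over the 60 nuclear genes, the level was 4731, 4971 and 8039 CPM in replicates 1, 2 and 3 of YK at 9 d, and 5350, 8583 and 7638 CPM in those of GS at 9 d. At 80 d it was 5318, 5162 and 7263 CPM in YK and 6300, 4752 and 6072 CPM in GS. The group means were 5914 ± 1845 (SD, n = 3) in YK at 9 d, 7190.5 ± 1662 in GS at 9 d, 5914 ± 1170 in YK at 80 d and 5708 ± 835 in GS at 80 d, so every group overlapped the others and the means differed by less than the largest SD.

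The 13 mitochondrial genes summed to 70817, 164890 and 116940 CPM in YK at 9 d and to 95373, 112850 and 93410 CPM in GS at 9 d. At 80 d they summed to 121450, 88116 and 151970 CPM in YK and to 103390, 84274 and 124730 CPM in GS. They took 7.59% to 16.3% of all units, while the nuclear members took 0.492% to 0.768%. All groups overlapped here too, and both the lowest and the highest of the 12 libraries were YK samples at 9 d.

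The ratio of the mitochondrial to the nuclear sum was 14.97, 33.2 and 14.5 in YK at 9 d and 17.8, 13.1 and 12.2 in GS at 9 d. It was 22.8, 17.1 and 20.9 in YK at 80 d and 16.4, 17.7 and 20.5 in GS at 80 d. The ratio compares units of counts that are not divided by gene length, so it serves to compare libraries and is not a ratio of molecules. YK 9 d replicate 2 stood apart with the highest ratio, and the remaining 11 libraries lay between 12.2 and 22.8.

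**Figure D1:**
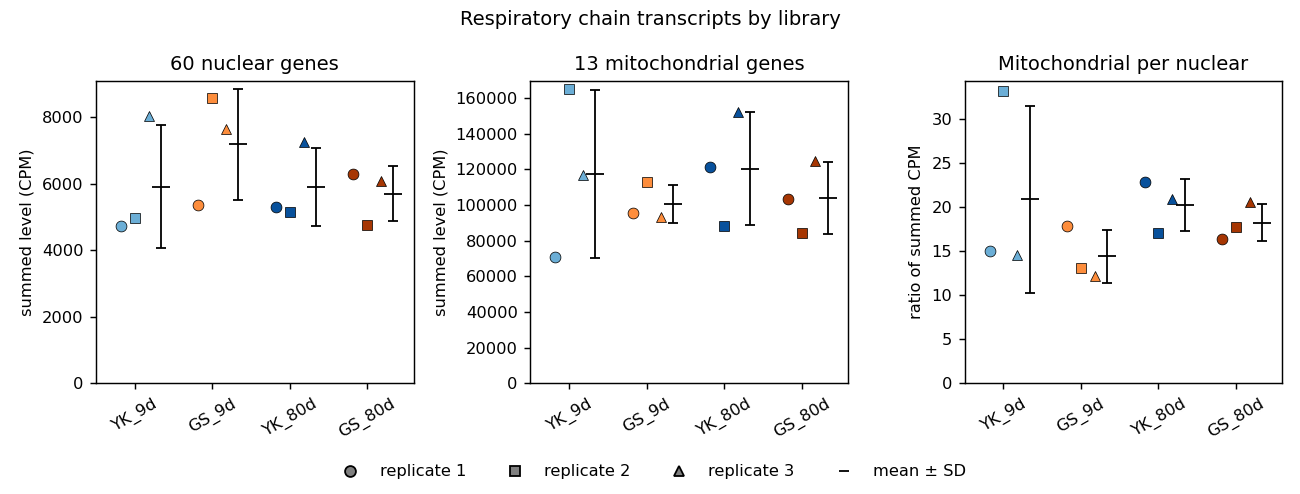
Summed level of the 60 nuclear genes (left, CPM), of the 13 mitochondrial genes (middle, CPM) and the ratio of these sums (right) in each of the 12 libraries, by group. Points are libraries, with a shape for each replicate number, and bars are the mean ± SD of 3 libraries; the groups overlap in all panels, and YK 9 d replicate 2 has the highest ratio, 33.2.

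The nuclear members moved together from library to library within each group. In YK at 9 d, replicate 3 was the highest of the 3 libraries for 58 of the 60 genes, and in YK at 80 d replicate 3 was the highest for 58 of 60. In GS at 9 d replicate 1 was the lowest for 59 of 60, and in GS at 80 d replicate 2 was the lowest for 55 of 60. These YK libraries had the lowest scaling factor of their group (0.888 and 0.906), and these GS libraries the highest (1.02 and 1.10). The part of scaling was not tested. The same counts over all genes were not computed, so they cannot be read as particular to the members. The mitochondrial genes also moved together in 3 of the 4 groups. In YK at 9 d their order differed from the nuclear one, with replicate 2 the highest for 12 of 13 and replicate 1 the lowest for 13 of 13. In YK at 80 d and in GS at 80 d, replicate 3 was the highest and replicate 2 the lowest for all 13. Replicate 2 was also mostly the lowest for the nuclear genes in GS at 80 d. In YK at 80 d replicates 1 and 2 nearly tied as the lowest for the nuclear genes (29 and 31 of 60). In GS at 9 d no library was the highest for more than 6 of the 13. A median over the members therefore carries the shifts of single libraries, and the members are not independent of each other.

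The 11 adipocyte markers summed to 13820, 20475 and 32482 CPM in YK at 9 d, to 17364, 34860 and 23731 in GS at 9 d, to 15304, 14173 and 19779 in YK at 80 d and to 23880, 25622 and 27188 in GS at 80 d. In the first 3 of these groups the library with the highest adipocyte sum was also the one with the highest nuclear respiratory chain sum, and in GS at 80 d it was not. Of the 3 libraries with muscle transcripts, YK 80 d replicate 3 had the highest nuclear sum of its group, GS 9 d replicate 3 the middle one and YK 9 d replicate 1 the lowest. The part of either cell type in these shifts was not tested.

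Gene by gene, the ratio of the highest to the lowest library was between 1.84 and 10.6 for the nuclear genes, with a median of 2.31, and between 2.24 and 8.69 for the mitochondrial genes, with a median of 2.63. The widest nuclear range was that of SDHC, a membrane anchor of complex II, followed by NDUFB1 at 4.36. SDHC, which is named here after its values were seen, read 18.8, 91.9 and 152 CPM in YK at 9 d, 48.2, 199 and 50.7 CPM in GS at 9 d, 86.3, 90.1 and 111 CPM in YK at 80 d and 75.3, 71.4 and 192 CPM in GS at 80 d. Its highest values (152, 199 and 192 CPM) fell in both breeds and at both ages. Its lowest (18.8, 48.2 and 50.7 CPM) fell in both breeds at 9 d. The SD of log2 CPM within a group had a median of 0.36 over the nuclear and 0.41 over the mitochondrial genes.

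**Figure D2:**
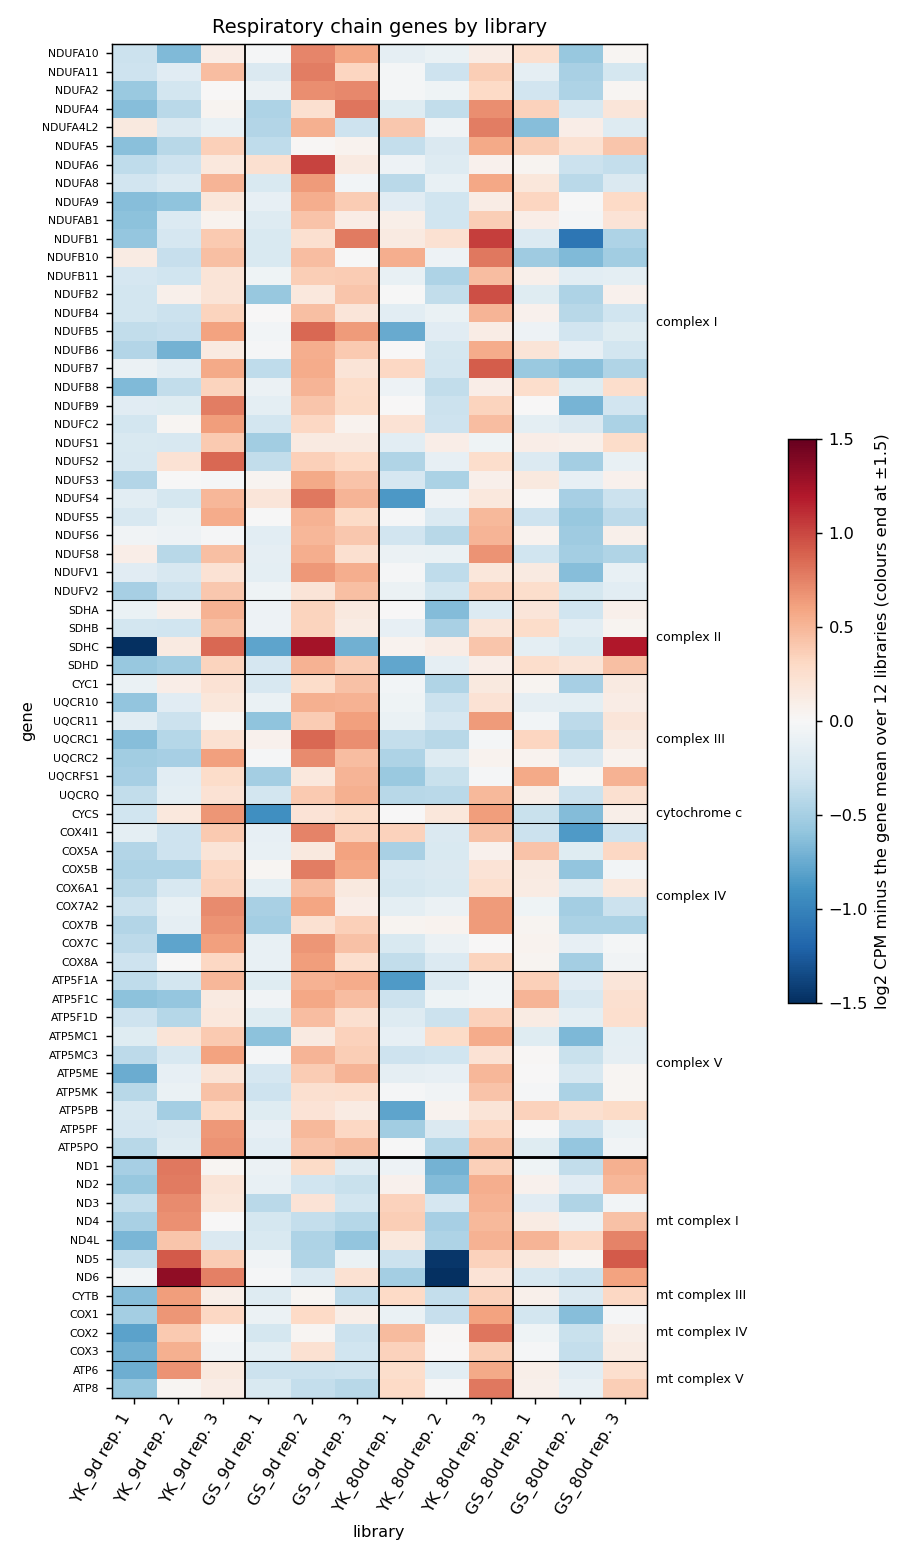
Level of each respiratory chain gene (rows, grouped by complex, nuclear above and mitochondrial below the thick line) in each of the 12 libraries (columns), as log2 CPM minus the gene's mean over the libraries, with colours ending at ±1.5. Whole columns share a colour, as in YK 9 d replicate 3 and GS 9 d replicate 2 for the nuclear genes and YK 9 d replicate 2 for the mitochondrial genes, and the largest single departures are those of SDHC and of ND5 and ND6.

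The design gives 4 differences, GS minus YK at 9 d and at 80 d, and 80 d minus 9 d within YK and within GS. Their interaction asks whether the change with age differs between the breeds. They share groups: each group of 3 libraries enters both a breed and an age difference. All log2 differences below come from edgeR's quasi-likelihood test over 15425 genes, with Benjamini-Hochberg adjustment and a threshold of 0.05 on the adjusted p. With 3 libraries a group, the standard error (SE) of a nuclear member's log2 difference between groups was 0.21 to 0.73, with a median of 0.28. The 95% interval of the difference lay within a 2-fold change in both directions for 32 to 52 of the 60 nuclear genes, depending on the comparison.

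At 9 d, none of the 60 nuclear and none of the 13 mitochondrial genes passed the test between breeds, where 1.02% of all genes did. Unadjusted p-values under 0.05 were found for 9 of the 60 nuclear genes (15%) and for 0 of the 13 mitochondrial genes, against 14.4% of all genes. The median log2 difference was 0.30 over the nuclear genes, with 50 of 60 above 0, and -0.33 over the mitochondrial genes, with 0 of 13 above 0. The median of all genes was 0.01, with 50.5% above 0. The groups of 3 libraries did not overlap for 1 nuclear gene, NDUFS3, a core subunit of complex I, against 18.5% of all genes. Leaving out 1 library at a time gave nuclear medians of 0.17 (without GS replicate 2) to 0.51 (without YK replicate 3), and mitochondrial medians of -0.56 (without YK replicate 1) to -0.05 (without YK replicate 2). With the muscle-bearing libraries left out the nuclear median was 0.09 and the mitochondrial one -0.48. With the skin-bearing libraries left out they were 0.59 and 0.33, but YK at 9 d is then replicate 1 alone, the library with the lowest mitochondrial sum of the 12, so that these values compare GS with that library.

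At 80 d, 1 of the 60 nuclear genes passed the test and was lower in GS, NDUFB10, against 6.12% of all genes called in either direction and 2.95% called lower. None of the 13 mitochondrial genes passed. Unadjusted p-values under 0.05 were found for 6 nuclear genes (10%) and 0 mitochondrial genes, against 23.8% of all genes, and the groups did not overlap for 10 nuclear genes, 3 with GS above YK and 7 below, against 31.4%. The median log2 difference was -0.07 over the nuclear genes, with 23 of 60 above 0, and -0.05 over the mitochondrial genes, with 5 of 13 above 0, against 48.6% of all genes. Both medians changed sign with single libraries. The nuclear one ran from -0.20 (without GS replicate 1) to 0.12 (without YK replicate 3) and the mitochondrial one from -0.25 (without YK replicate 2) to 0.08 (without GS replicate 2). With the muscle-bearing libraries left out the nuclear median was 0.13 and the mitochondrial one 0.07. With the T cell-bearing ones left out they were 0.08 and -0.18, but YK at 80 d is then replicate 1 alone. Of the cell type markers, 4 of 10 T and NK cell genes were called lower in GS at 80 d and 4 of 11 adipocyte genes higher, and their part in the respiratory chain values was not tested.

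From 9 to 80 d in YK, 0 of 60 nuclear and 0 of 13 mitochondrial genes passed the test, against 1.21% of all genes. No nuclear gene and 1 mitochondrial gene, ND6, had an unadjusted p under 0.05, against 13.5% of all genes, and no member of either set had groups that did not overlap, against 15.8%. The median log2 difference was 0.05 over the nuclear genes, with 37 of 60 above 0, and 0.01 over the mitochondrial genes, with 7 of 13 above 0, against 50.0% of all genes. The 95% interval lay within a 2-fold change for 52 of the 60 nuclear and 8 of the 13 mitochondrial genes. Leaving out 1 library at a time gave nuclear medians of -0.12 (without YK 80 d replicate 3) to 0.32 (without YK 9 d replicate 3) and mitochondrial medians of -0.22 (without YK 9 d replicate 1) to 0.38 (without YK 9 d replicate 2). With the muscle-bearing libraries left out the medians were -0.29 and -0.38. With the skin-bearing ones left out they were 0.34 and 0.67, YK at 9 d being replicate 1 alone. The summed macrophage markers were 668 to 895 CPM in YK at 9 d and 194 to 514 CPM at 80 d, and 2 of the 8 were called lower. The fibroblast and progenitor markers summed to 31555 to 43625 CPM and 9668 to 24481 CPM, with none of 7 called. The part of these cells was not tested.

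From 9 to 80 d in GS, 0 of 60 nuclear and 0 of 13 mitochondrial genes passed the test, against 2.65% of all genes. Unadjusted p-values under 0.05 were found for 12 nuclear genes (20%) and 1 mitochondrial gene, ND4L, against 20.0% of all genes. The median log2 difference was -0.33 over the nuclear genes, with 6 of 60 above 0, and 0.25 over the mitochondrial genes, with 10 of 13 above 0, against 49.4% of all genes. Groups did not overlap for 10 nuclear genes, 8 of them with 80 d below 9 d, and for 5 mitochondrial genes, ND4, ND4L, ND5, ATP6 and ATP8, all with 80 d above 9 d, against 33.7% of all genes. Leaving out 1 library at a time gave nuclear medians of -0.51 to -0.24 (without GS 9 d replicates 1 and 2) and mitochondrial medians of 0.13 to 0.39 (without GS 80 d replicates 3 and 2). Markers of other cells also differed with age in GS. The macrophage sum was 759 to 814 CPM at 9 d and 169 to 373 CPM at 80 d, with 4 of 8 genes called lower and 1 of these, MARCO, at 0 in all 3 libraries at 80 d. The fibroblast and progenitor sum was 30834 to 57117 CPM at 9 d and 22771 to 24815 CPM at 80 d, with none of 7 genes called. The part of these cells in the respiratory chain values was not tested.

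For the interaction, 0 of 60 and 0 of 13 genes passed, against 0.0648% of all genes. Unadjusted p-values under 0.05 were found for 5 nuclear and 0 mitochondrial genes, against 11.0% of all genes. The nuclear median was -0.36, with 11 of 60 above 0, and the mitochondrial median was 0.27, with 8 of 13 above 0, against 50.2% of all genes. With the 3 muscle-bearing libraries left out the nuclear median was 0.05, and with the 2 skin-bearing ones left out it was -0.73. The mitochondrial median was 0.76 and -0.51 in these fits, and in the second YK at 9 d is replicate 1 alone. It was -0.10 without YK 9 d replicate 2, while the nuclear median kept its sign in each fit that left out 1 library (-0.61 to -0.17).

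**Figure D3:**
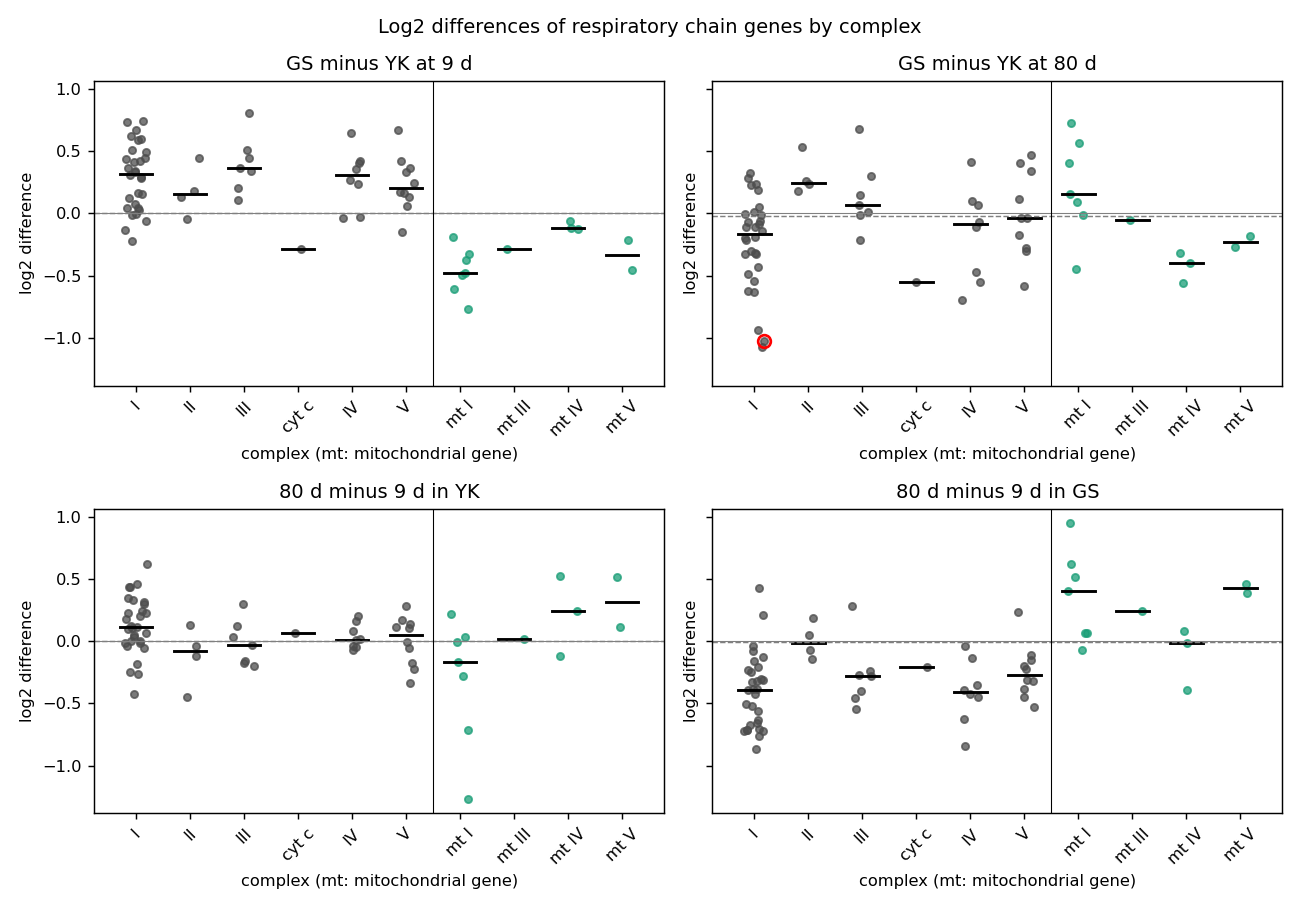
Log2 difference of each respiratory chain gene in the 4 comparisons, by complex, with nuclear genes in grey and mitochondrial genes in green; black bars are medians and the dashed line is the median of all genes tested. The red ring marks NDUFB10 at 80 d, which passed an adjusted p of 0.05; the nuclear genes lie mostly above 0 in the breed comparison at 9 d and below 0 from 9 to 80 d in GS.

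Complex I takes electrons from NADH. Its 6 nuclear core subunits here are the flavin and iron-sulphur proteins that carry the electrons, and its 24 other nuclear genes in this count, NDUFA4 and NDUFA4L2 included by their symbols, are accessory. NDUFA4 itself is now regarded as a subunit of complex IV. NDUFS1, the largest core subunit, read 41.3, 40.9 and 63.5 CPM in YK at 9 d, 33.6, 52.9 and 53.0 in GS at 9 d, 43.2, 52.0 and 46.3 in YK at 80 d, and 51.7, 51.2 and 58.7 in GS at 80 d. The groups overlapped in each comparison of NDUFS1, and its log2 differences lay between -0.06 and 0.21.

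NDUFA2, an accessory subunit of the peripheral arm, read 27.2, 33.3 and 40.4 CPM in YK at 9 d, 37.9, 65.0 and 66.4 CPM in GS at 9 d, 39.4, 38.6 and 49.3 CPM in YK at 80 d, and 32.9, 29.3 and 41.1 CPM in GS at 80 d. GS replicates 2 and 3 at 9 d were the highest of the 12 libraries, while replicate 1 fell within the YK range. Its breed difference at 9 d was 0.75 ± 0.25 (SE; adjusted p = 0.184), the smallest p among the members in that comparison. The interaction was -1.05 ± 0.35 (adjusted p = 0.319) for NDUFA2, again the smallest among the members and not past the threshold. In RefSeq's pig annotation (Sscrofa11.1) NDUFA2 overlaps TMCO6, and reads of overlapping genes may not have been told apart.

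At 80 d the medians of the complexes differed in sign, though with 1 call in all. The median log2 difference between breeds was -0.16 for the nuclear complex I genes, with 23 of 30 below 0, and 0.25 for the 4 complex II genes, with 4 of 4 above 0. The groups did not overlap for 5 complex I genes, all with GS below YK: NDUFB1, NDUFB7, NDUFB10, NDUFS5 and NDUFS8. These 5 of 30 were a smaller share than the 31.4% of all genes. From 9 to 80 d in GS the complex I median was -0.39, with 28 of 30 below 0, and 10 of the 30 had an unadjusted p under 0.05 (33.3%), against the 20.0% of all genes.

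NDUFB10, an accessory subunit of the membrane arm, was the gene that passed. It read 307, 200 and 364 CPM in YK at 80 d and 146, 134 and 147 CPM in GS at 80 d, where all 3 GS libraries lay below all 3 YK libraries and close together. At 9 d it read 230, 166 and 290 CPM in YK and 180, 291 and 211 CPM in GS, and the breeds overlapped. The breed difference at 80 d was -1.03 ± 0.28 (adjusted p = 0.0486), and that at 9 d was -0.01 ± 0.28. The call was lost in 5 of the 6 fits that each left out 1 library, which gave adjusted p-values of 0.0237 to 0.148. It was also lost without the muscle-bearing libraries (-0.83, adjusted p = 0.212) and without YK replicates 2 and 3 at 80 d, which held T cell transcripts (-1.11, adjusted p = 0.125). In the latter fit the lone YK library at 80 d is assumed to vary like the other groups. The interaction did not pass (-1.02 ± 0.39, adjusted p = 0.371).

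In the same annotation NDUFB10 overlaps RPS2, a protein of the small cytosolic ribosomal subunit, and RPL3L. RPS2, which is no member of the chain, read 2265, 1872 and 3410 CPM in YK at 80 d and 1124, 1124 and 1180 CPM in GS at 80 d, and its breed difference was -1.14 ± 0.30 (adjusted p = 0.0457). The RPS2 call was lost in 5 of the 6 fits that left out 1 library and without the muscle-bearing libraries (-0.86, adjusted p = 0.222). Without the T cell-bearing ones, again with 1 YK library at 80 d, the RPS2 difference was -0.99. The level of NDUFB10 was 10.4% to 13.6% of that of RPS2 in all 12 libraries, a 1.30-fold range, whereas NDUFB10 alone ranged 2.72-fold and RPS2 3.03-fold. Nothing in the sources used here says that counting kept the strands separate, and reads of NDUFB10 and RPS2 may not have been told apart. The overlap was judged from the start and end of each gene alone, and its part in the NDUFB10 call was not tested. Of the 60 nuclear members, 40 were found by symbol in that annotation and 9 of these overlapped another gene, among them NDUFB1, NDUFS3 and SDHA.

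NDUFB1 and NDUFB7 are further accessory subunits of the membrane arm, and NDUFB7 was chosen after its values were seen. NDUFB1 read 22.3, 23.7 and 41.6 CPM in YK at 80 d and 17.5, 9.53 and 14.6 CPM in GS at 80 d. Its breed difference was -1.07 ± 0.36 (adjusted p = 0.0942), the lowest value among the members. NDUFB7 read 38.9, 26.0 and 58.8 CPM in YK and 21.4, 20.3 and 22.9 CPM in GS, a difference of -0.94 ± 0.32 (adjusted p = 0.0970). In both genes all GS libraries lay below all YK libraries at 80 d. The highest YK library was replicate 3, which held muscle and T cell transcripts. Without the muscle-bearing libraries the differences were -0.73 for NDUFB1 (adjusted p = 0.27) and -0.59 for NDUFB7 (adjusted p = 0.38). Without the T cell-bearing ones, which leaves YK replicate 1 alone at 80 d, they were -0.68 and -0.85. The part of those cells was not tested. At 9 d NDUFB1 read 13.5, 16.9 and 26.5 CPM in YK and 17.3, 23.9 and 34.7 CPM in GS. NDUFB1 also had the lowest difference from 9 to 80 d in GS, -0.86 ± 0.36 (adjusted p = 0.208), the highest nuclear one in YK, 0.62 ± 0.36 (adjusted p = 0.510), and the lowest interaction, -1.48 ± 0.51 (adjusted p = 0.326).

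**Figure D4:**
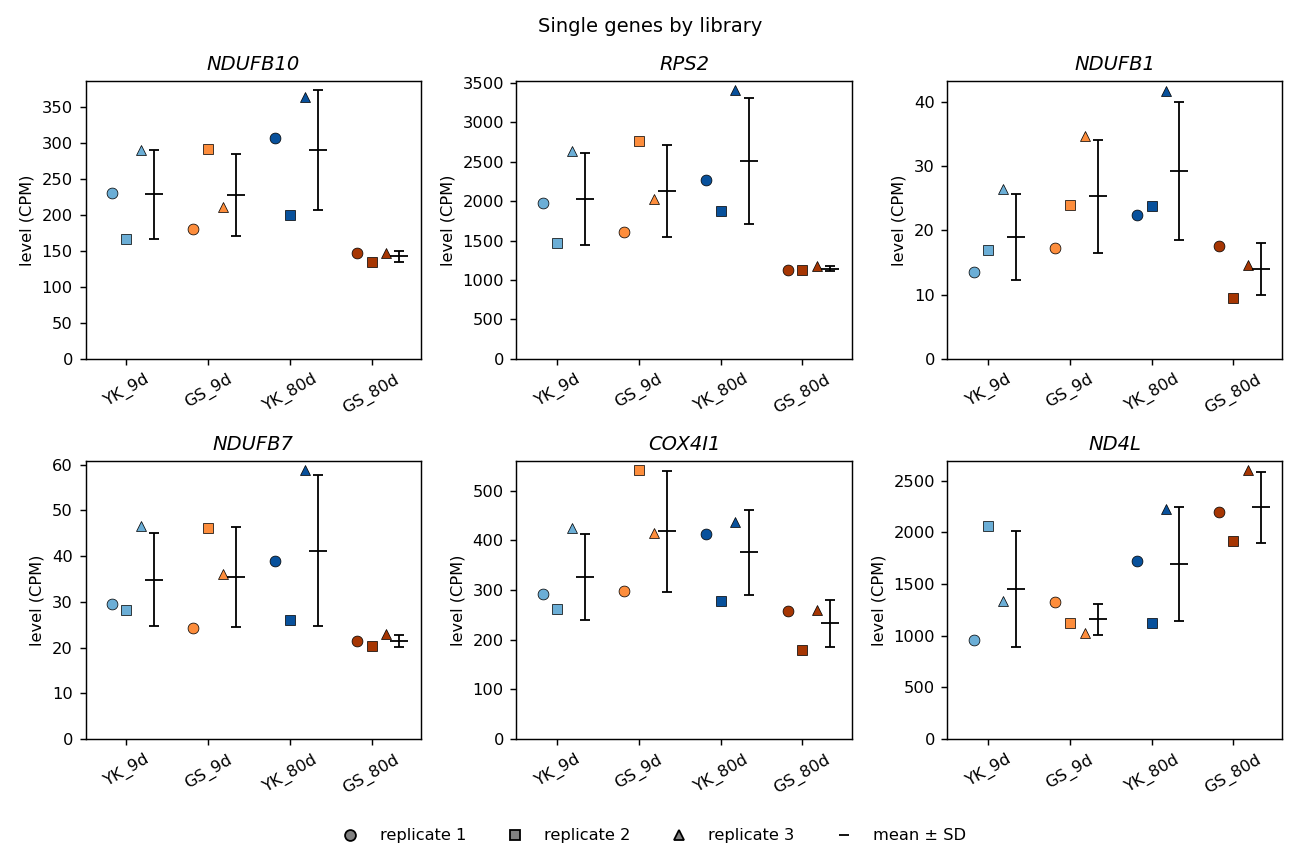
Level (CPM) of NDUFB10, the overlapping ribosomal protein gene RPS2, NDUFB1, NDUFB7, COX4I1 and ND4L in each library, by group, with the mean ± SD of 3 libraries as bars. In NDUFB10 and RPS2 the 3 GS libraries at 80 d sit lowest and close together, at 134 to 147 and 1124 to 1180 CPM, and in the other 3 groups both genes order the libraries alike; in ND4L the GS libraries at 80 d sit at 1921 to 2603 CPM.

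Complex II joins the chain to the citric acid cycle by oxidising succinate. SDHB, its iron-sulphur subunit, read 77.9, 76.6 and 128 CPM in YK at 9 d, 89.1, 118 and 103 CPM in GS at 9 d, 86.4, 67.4 and 107 CPM in YK at 80 d, and 114, 84.2 and 96.9 CPM in GS at 80 d. The groups overlapped throughout, and the log2 differences lay between -0.12 and 0.18. SDHD, the other membrane anchor, was the complex II gene whose breeds did not overlap at 80 d (0.53 ± 0.30, adjusted p = 0.308).

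Complex III passes electrons from ubiquinol to cytochrome c. UQCRC1, a core protein of its matrix side, read 92.5, 108 and 170 CPM in YK at 9 d and 151, 263 and 234 CPM in GS at 9 d, so that YK replicate 3 lay above GS replicate 1 and the groups overlapped. At 80 d it read 112, 108 and 141 CPM in YK and 180, 106 and 159 CPM in GS. The breed difference at 9 d was 0.81 ± 0.29 (adjusted p = 0.219), the highest among the members. UQCRFS1, the Rieske iron-sulphur protein, read 48.1, 55.9 and 69.5 CPM in YK at 80 d and 104, 71.8 and 101 CPM in GS at 80 d. These groups did not overlap, and the difference, 0.68 ± 0.29 (adjusted p = 0.175), was the highest among the nuclear members at 80 d.

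CYC1, the cytochrome c1 of complex III, read 75.5, 86.7 and 93.6 CPM in YK at 9 d, 68.2, 97.8 and 109 CPM in GS at 9 d, 78.2, 59.3 and 89.1 CPM in YK at 80 d, and 82.9, 57.0 and 88.3 CPM in GS at 80 d. The groups overlapped, and the differences lay between -0.27 and 0.11. CYCS, the soluble cytochrome c that carries electrons to complex IV, read 56.4, 77.7 and 110 CPM in YK at 9 d, 36.7, 80.2 and 83.7 CPM in GS at 9 d, 69.5, 77.8 and 108 CPM in YK at 80 d, and 55.3, 44.4 and 74.1 CPM in GS at 80 d. CYCS had the lowest nuclear difference between breeds at 9 d, -0.28 ± 0.34 (adjusted p = 0.792), and at 80 d its difference was -0.55 ± 0.34 (adjusted p = 0.350). The groups overlapped at both ages.

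Complex IV reduces oxygen to water. COX4I1, the common isoform of its subunit 4, read 292, 261 and 424 CPM in YK at 9 d, 298, 541 and 414 CPM in GS at 9 d, 412, 278 and 437 CPM in YK at 80 d, and 259, 179 and 260.3 CPM in GS at 80 d. All 3 GS libraries at 80 d lay below the other 9 libraries, by the narrowest margin below YK 9 d replicate 2. From 9 to 80 d in GS the difference was -0.84 ± 0.29 (adjusted p = 0.136), and at 80 d between breeds it was -0.69 ± 0.29 (adjusted p = 0.172). The COX4I1 change with age in GS passed in DESeq2 (adjusted p = 0.0477) and not in edgeR. Of all genes DESeq2 called 1465 in that comparison, against 409 in edgeR. In edgeR COX4I1 did not pass with replicate number as a block (-0.87, adjusted p = 0.136) or without the muscle-bearing libraries (-0.85, adjusted p = 0.240). All 8 complex IV genes had a difference below 0 from 9 to 80 d in GS, with a median of -0.41. Among the 7 genes of tissue-restricted isoforms with a row (of 10 listed), 5 were tested, and COX4I2, the alternative isoform of subunit 4, was lower in GS at 80 d. COX4I2 read 24.8, 14.0 and 16.2 CPM in YK at 80 d and 6.88, 9.90 and 7.30 CPM in GS at 80 d, groups that did not overlap (-1.19 ± 0.26, adjusted p = 0.0235), and the call was lost in 3 of the 6 fits that left out 1 library and without the muscle-bearing libraries (-1.27, adjusted p = 0.0759).

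The 10 nuclear complex V genes, subunits of the ATP synthase, had median log2 differences of 0.21 between breeds at 9 d, -0.04 at 80 d, 0.05 with age in YK and -0.27 with age in GS. None passed the test in any comparison. The highest difference at 80 d was that of ATP5F1A, the nucleotide-binding alpha subunit of the F1 part (0.47), and the lowest that of ATP5MC1, a gene of the membrane ring (-0.58). ATP5IF1, the inhibitor of the ATP synthase, did not pass in any comparison.

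Mitochondrial DNA is transcribed as long molecules from both strands that are then cut into single RNAs, ND6 being the protein-coding gene of the light strand. Since it is not known whether counting kept the strands separate, the ND6 values may include reads of the other strand. ND4L and ND4, and ATP8 and ATP6, share RNAs and overlap in sequence. ND1, a membrane subunit of complex I, read 1144, 2796 and 1648 CPM in YK at 9 d, 1522, 1974 and 1409 CPM in GS at 9 d, 1529, 990.3 and 2075 CPM in YK at 80 d, and 1548, 1248 and 2334 CPM in GS at 80 d. CYTB, the cytochrome b of complex III, read 6107, 14672 and 10117 CPM in YK at 9 d, 8353, 9696 and 7331 CPM in GS at 9 d, 11718, 7415 and 12058 CPM in YK at 80 d, and 10062, 8178 and 11841 CPM in GS at 80 d. In both genes the groups overlapped in every comparison and the highest library was YK 9 d replicate 2.

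COX1, the catalytic subunit of complex IV, read 20708, 46499 and 36450 CPM in YK at 9 d, 27613, 36185 and 31139 CPM in GS at 9 d, 27382, 23179 and 44803 CPM in YK at 80 d, and 24365, 18835 and 29108 CPM in GS at 80 d. ATP6, the proton channel subunit of complex V, read 2793, 7354 and 5131 CPM in YK at 9 d, 3714, 3702 and 3715 CPM in GS at 9 d, 5538, 4160 and 6864 CPM in YK at 80 d, and 4918, 4137 and 5529 CPM in GS at 80 d. COX1 and ATP6 had differences of opposite sign from 9 to 80 d in GS, -0.39 ± 0.34 and 0.39 ± 0.32, and of these 2 genes ATP6 was the one whose groups did not overlap. ATP8, the other mitochondrial subunit of complex V, read 648, 985 and 1038 CPM in YK at 9 d and 1183, 957 and 1669 CPM in YK at 80 d, which overlap (0.51 ± 0.26, adjusted p = 0.439). It had the second smallest p among the members with age in YK.

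ND4L had the highest difference from 9 to 80 d in GS. It read 1323, 1123 and 1028 CPM at 9 d and 2202, 1921 and 2603 CPM at 80 d, so that all 3 libraries at 80 d lay above those at 9 d, a difference of 0.95 ± 0.32 (adjusted p = 0.123). In YK it read 962, 2064 and 1336 CPM at 9 d and 1726, 1127 and 2224 CPM at 80 d, and these groups overlapped. The ND4L change in GS passed in DESeq2 (adjusted p = 0.0294) and in edgeR fitted to the 2 GS groups alone (adjusted p = 0.0342), but not in the fit over 4 groups. The 2 fits that passed it also called more of all genes in that comparison, 1465 and 1055 against 409. ND4L was called in 0 of the 6 edgeR fits that left out 1 library (adjusted p = 0.170 to 0.289). It did not pass with replicate number as a block (0.94, adjusted p = 0.167) or without the muscle-bearing libraries (0.87, adjusted p = 0.205).

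ND6 and ND5 had the widest ranges among the mitochondrial genes. ND6 read 1637, 4228 and 2830.0 CPM in YK at 9 d, 1662, 1461 and 1973 CPM in GS at 9 d, 1182, 487 and 1933 CPM in YK at 80 d, and 1423, 1342 and 2555 CPM in GS at 80 d. Its difference with age in YK was -1.27 ± 0.47 (adjusted p = 0.244), the lowest among the members, and between breeds at 9 d it was -0.77 ± 0.47 (adjusted p = 0.498), again the lowest. With the skin-bearing libraries left out, which leaves YK replicate 1 alone at 9 d, the ND6 breed difference was 0.05 and the age difference in YK -0.45. ND5 read 3695, 1684 and 5875 CPM in YK at 80 d and 5146, 4718 and 8780 CPM in GS at 80 d, which overlap, and its difference of 0.73 ± 0.44 (adjusted p = 0.341) was the highest at 80 d. The interaction was 1.33 ± 0.66 (adjusted p = 0.489) for ND6, the highest among the members.

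The mitochondrial genes were also set against each other, since a shift of all 13 in a library cancels in their shares of the 13-gene count. These shares and ratios were looked at after the values of single genes were seen, and reads of nuclear copies of mitochondrial DNA may be among them. Between breeds at 9 d, 3 of 13 shares showed no overlap of the groups. They did not overlap for 7 of 13 between breeds at 80 d, for 6 of 13 with age in YK and for 8 of 13 with age in GS. In CPM the groups did not overlap for 18.5%, 31.4%, 15.8% and 33.7% of all genes, but a share within the 13 removes shifts of whole libraries that CPM keeps, so the counts cannot be read against these percentages. The shares sum to 100%, so a gene that gains makes the others lose, and an exact two-sided permutation test of 3 against 3 libraries cannot give a p below 0.1, the value all these genes had.

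The share of ND4L was 2.13%, 2.28% and 2.09% in GS at 80 d, and between 0.995% and 1.46% in the other 9 libraries. The share of COX2, the copper-binding subunit of complex IV, which is named after its values were seen, was 11.91%, 12.01% and 11.95% in YK at 80 d and between 8.28% and 9.79% in the others. All 3 libraries of the named group thus lay above all libraries of the other groups in both genes, but the group was GS for ND4L and YK for COX2.

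The share of ND6 was 2.31%, 2.56% and 2.42% in YK at 9 d and 0.973%, 0.552% and 1.27% in YK at 80 d, with GS between 1.29% and 2.11% at both ages. The share of ND5 was 5.12%, 5.34% and 5.15% in YK at 9 d and 3.04%, 1.91% and 3.87% in YK at 80 d. The share of COX1 was 29.0%, 32.1% and 33.3% in GS at 9 d and 23.6%, 22.4% and 23.3% in GS at 80 d. In each of these genes the 2 ages did not overlap in the breed named.

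Some ratios between mitochondrial genes separated the ages in both breeds. ND6 was 37.2% to 48.1% of ND5 in the 6 libraries at 9 d and 27.6% to 32.9% in the 6 at 80 d. COX2 was 26.7% to 31.4% of COX1 at 9 d and 38.0% to 52.8% at 80 d. Of the 78 pairs of mitochondrial genes, 7 (8.97%) had a ratio that did not overlap between all libraries at 9 d and all at 80 d, and so did 13 of the 1770 pairs of nuclear members (0.734%). ND4L was in 4 of the 7 mitochondrial pairs and COX1 in 3. Pairs that share a gene are not independent, and no test was made of these counts. The share over pairs of all genes was not computed, so neither count can be read as particular to the members.

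**Figure D5:**
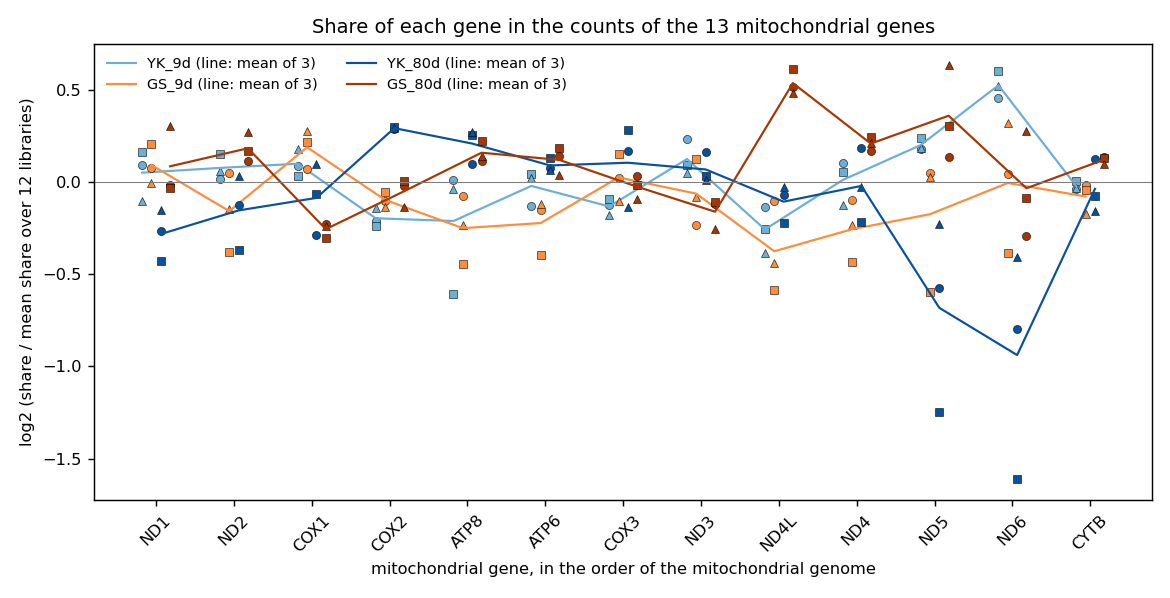
Share of each mitochondrial gene in the summed count of the 13 genes, as log2 of the share over its mean in the 12 libraries, with genes in the order of the mitochondrial genome; points are libraries, with shapes for replicate numbers, and lines join the group means. ND4L stands high in the 3 GS libraries at 80 d, COX2 in the 3 YK libraries at 80 d, and ND5 and ND6 are low in YK at 80 d.

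Genes that serve the chain were described from lists chosen with earlier results of these data known. Assembly factors of complex I (17 tested), factors of mitochondrial DNA replication and transcription (25), nuclear regulators such as the PGC-1 and NRF families (17), protein import (17), supercomplex factors (3) and hypoxia-linked genes (7) had no call in any comparison in edgeR. Of 23 assembly factors of complexes II to V, 4 (17.4%) were called between breeds at 80 d, against 6.12% of all genes. COX15, an enzyme of haem A synthesis for complex IV, was higher in GS (1.06 ± 0.22, adjusted p = 0.0193), at 48.7, 29.3 and 41.8 CPM against 16.4, 21.8 and 19.2 CPM in YK. UQCC2, needed to assemble complex III, was lower in GS (-1.56 ± 0.33, adjusted p = 0.0199), at 23.02, 15.8 and 15.7 CPM against 59.6, 28.8 and 72.3 CPM in YK. COX19, which takes part in copper delivery to complex IV, was lower as well (-1.14 ± 0.25, adjusted p = 0.0249). SCO2, a copper chaperone for COX2, was the fourth (-1.44 ± 0.38, adjusted p = 0.0457) and is named after its values were seen. The groups at 80 d did not overlap in any of the 4. When 1 library at a time was left out, UQCC2 was called in 3 of 6 fits, COX15 in 2, COX19 in 1 and SCO2 in 0. Without the muscle-bearing libraries COX15, UQCC2, COX19 and SCO2 had differences of 1.06, -1.28, -0.999 and -1.36, with adjusted p-values of 0.0900, 0.0884, 0.123 and 0.156. Without the T cell-bearing ones, which leaves 1 YK library at 80 d, the differences were 1.28, -1.71, -1.35 and -1.5.

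Of 63 genes of the mitochondrial ribosome, which translates the 13 mitochondrial RNAs, 2 were called at 80 d, both lower in GS: MRPL28 of the large subunit (-1.11 ± 0.28, adjusted p = 0.0385) and MRPS25 of the small subunit (-0.84 ± 0.22, adjusted p = 0.0412). With age, MRPS34 was lower at 80 d in YK (-0.94 ± 0.20, adjusted p = 0.0461), and MRPS6 in GS (-1.20 ± 0.28, adjusted p = 0.0441), each the 1 call of the list in that comparison. Each of the 4 ribosomal calls held in 1 of the 6 fits that left out 1 library, and none held without the muscle-bearing libraries. The share of calls was 3.17% of the 63 genes at 80 d, against 6.12% of all genes called in either direction and 2.95% called lower. The median log2 difference of the list with age in GS was -0.32, with 9 of 63 above 0, and that of the nuclear chain members was -0.33.

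The citric acid cycle and pyruvate dehydrogenase, which supply the chain with NADH and succinate, had 4 calls among 17 genes at 80 d, all higher in GS, against 3.17% of all genes called higher. All 4 encode parts of the pyruvate dehydrogenase complex, which turns pyruvate into acetyl-CoA. PDHA1, the E1 alpha subunit, read 237, 237 and 237 CPM in YK at 80 d and 733, 453 and 609 CPM in GS at 80 d, a difference of 1.33 ± 0.27 (adjusted p = 0.0155). PDHB, the E1 beta subunit, read 83.5, 112 and 108 CPM in YK and 244, 188 and 248 CPM in GS (1.17 ± 0.23, adjusted p = 0.0144). In both genes the lowest GS library at 80 d exceeded the highest YK library.

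DLAT, the E2 subunit, read 42.3, 47.3 and 38.1 CPM in YK at 80 d and 102, 89.2 and 89.3 CPM in GS at 80 d (1.14 ± 0.23, adjusted p = 0.0165). DLD, the E3 subunit that other dehydrogenases share, read 66.1, 88.2 and 93.5 CPM in YK and 160.3, 160.5 and 160.6 CPM in GS (0.96 ± 0.23, adjusted p = 0.0296), and is named after its values were seen. None of the 4 was called at 9 d. At that age GS still lay above YK without overlap for PDHA1 (399, 441 and 415 CPM against 200, 230 and 392 CPM). The same held for DLAT (59.8, 75.4 and 62.1 CPM against 30.2, 40.3 and 58.0 CPM). The breeds overlapped at 9 d for PDHB and DLD, and did not overlap for 18.5% of all genes. At 80 d, leaving out 1 library at a time kept PDHA1, PDHB and DLAT called in 4 of 6 fits each and DLD in 1 of 6. All 4 lost the call without the muscle-bearing libraries (log2 differences of 1.06 to 1.33, adjusted p = 0.0542 to 0.0760). Without the T cell-bearing ones, which leaves 1 YK library at 80 d, the differences were 1.15 to 1.44. Most adipocyte genes moved the same way at 80 d, with 9 of the 11 above 0, against 48.6% of all genes. In GS 4 of the 11 were called higher: CIDEC (1.89 ± 0.38), CEBPA (1.36 ± 0.30), PLIN1 (1.31 ± 0.32) and LPL (1.41 ± 0.36). LPL is named after its values were seen. The sum of the list was 23880 to 27188 CPM in GS against 14173 to 19779 CPM in YK. These 4 adipocyte calls were also lost without the muscle-bearing libraries, with differences of 1.44 to 1.66. Without the T cell-bearing ones the adipocyte differences were 1.17 to 1.53, again with 1 YK library at 80 d. CIDEC was also called higher in GS at 9 d (1.81 ± 0.38, adjusted p = 0.0449), a call that held in 1 of the 6 fits that left out 1 library. The part of adipocyte content in the pyruvate dehydrogenase difference was not tested. IDH2, the NADP-dependent isocitrate dehydrogenase of mitochondria, was the 1 call of this list with age, lower at 80 d in GS (-1.21 ± 0.27, adjusted p = 0.0370), at 28.6, 40.1 and 44.6 CPM against 73.0, 80.2 and 109 CPM at 9 d, and the call was lost in each of the 6 fits that left out 1 library and without the muscle-bearing libraries (-1.02, adjusted p = 0.0890).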

How the data were processed

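RNA from 12 samples of subcutaneous fat was extracted with TRIzol and made into stranded libraries, per the labels' protocols. The authors deposited expected counts per gene as whole numbers, and their totals differ between libraries. For aligner, counter and annotation the sources used here give no name. As build, the submitters' processing notes list mouse mm10, whereas the gene IDs are those of pig, so no coordinates are printed. In the deposited values, low counts pile up near multiples of 3.76 units, estimated here as the weight of 1 fragment: 3354 values equal 4, against 1233 equal to 3 and 795 equal to 5. The units therefore overstate fragments, and a fit on divided values was an alternative. Symbols matched 14692 of 24358 IDs.

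Genes passing filterByExpr (15425) were fitted in edgeR 4.0.16 (R 4.3.3, limma 3.58.1, statmod 1.5.0) by robust quasi-likelihood with TMM factors (0.888 to 1.10), 4 group means and all 12 libraries, which left 8 residual degrees of freedom and gave a common dispersion of 0.267. Tests were two-sided, with Benjamini-Hochberg adjustment over all genes tested. The SE is the log2 difference divided by the square root of F. Levels are CPM with TMM scaling, given as mean ± SD over 3 libraries. DESeq2 1.42.0, limma-voom and other settings were alternatives, and the procedure was tested on simulated data.

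Members, lists and the choice of genes to name were set with earlier results of these data known. Named are a fixed gene of each complex, the 5 members of smallest p in each direction past the threshold or the 2 of smallest p where none passed, the members with the largest and smallest log2 difference in each comparison, and up to 3 called genes of each companion list. NDUFB7, SDHC, COX2, RPS2, SCO2, DLD and LPL were added after their values were seen.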

Additional observations from a re-analysis of the deposited data

How the results depend on the processing

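Counts of members past the threshold stayed at 0 in every alternative for the breed comparison at 9 d, age in YK and the interaction, in both genomes. At 80 d the 1 nuclear call became 0 without the filter on low counts, 0 with the replicate block, 0 with the muscle-bearing libraries left out and 0 with the T cell-bearing ones left out, and 3 in DESeq2 (NDUFB1, NDUFB7 and NDUFB10); leaving out 1 library gave 0 to 2. With age in GS, DESeq2 called 1 nuclear gene (COX4I1) and 1 mitochondrial gene (ND4L), and a fit of the GS groups alone called 1 mitochondrial gene. With the muscle-bearing libraries left out, the nuclear median was -0.29 with age in YK, and the interaction medians were 0.047 (nuclear) and 0.76 (mitochondrial). With the skin-bearing ones left out, the mitochondrial medians were 0.33 between breeds at 9 d and 0.67 with age in YK, the interaction medians were -0.73 (nuclear) and -0.51 (mitochondrial), and the ND6 difference between breeds at 9 d was 0.051, against -0.77 with all libraries. The cause was not tested, and these fits had fewer samples. Leaving out the skin-bearing libraries kept 1 YK library at 9 d, and leaving out the T cell-bearing ones kept 1 YK library at 80 d. Over all genes, the 157, 944, 186, 409 and 10 calls (breed at 9 d, breed at 80 d, age in YK, age in GS, interaction) numbered 891, 2221, 850, 1465 and 369 in DESeq2 and 49, 808, 65, 320 and 2 with the replicate block; they numbered 39, 290, 51, 150 and 15 with the muscle-bearing libraries left out, 11, 14 and 4 (breed at 9 d, age in YK, interaction) with the skin-bearing ones and 242, 74 and 21 (breed at 80 d, age in YK, interaction) with the T cell-bearing ones; limma-voom gave 72 for age in YK and 6 for the interaction, and fits of the groups compared alone gave 29, 849, 46 and 1055 for the first 4; leaving out 1 library gave 5 to 284, 255 to 916, 27 to 245, 78 to 122 and 5 to 90. Same-numbered libraries had correlations of -0.224 to 0.244, and 3 of 18 pairs exceeded 0.1, so the numbers were not taken to pair the samples; NDUFB10 had an adjusted p of 0.0676 with the replicate block.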
